A study of Mus musculus with 212 samples.

Results

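Adjacent days of cardiac differentiation were compared cell by cell, with 6 single cells named D7 set against 6 named D6, out of 24 cells in the D5-D8 table and 200 cells in the series. The members were all columns of that table whose cell name starts with D7 or D6, and the negative and positive control columns were left out. The series measured 42 TaqMan assays of 33 genes in mouse cells sorted one by one, using quantitative PCR on microfluidic chips. The names D6 and D7 are read here as days of differentiation in embryoid bodies, the aggregates in which embryonic stem (ES) cells differentiate, which the names themselves do not spell out. The sample titles instead call these cells E10.5 cells and give the mouse embryo as source, so the sets are named here by cell name. The labels give no ES cell line, strain, genotype, medium or sort gate, and no treatment.

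Values are given as expression, 25 minus the quantification cycle (Ct), in cycles. An assay without signal is listed at Ct 25 and is 0 here, and a difference of 1 cycle is 1 log2 unit if each PCR cycle doubles the product. The labels name no culture or embryoid body, so each day is 1 sample. No difference was tested, the SD is the spread between cells, and intervals are exact (Clopper-Pearson) 95% intervals for counting error only. With 6 cells per day these are wide: 5 of 6 cells is a share of 83.3% (35.9 to 99.6%) and 1 of 6 is 16.7% (0.42 to 64.1%). None of the 12 cells repeated another cell of the series in all 42 values, and the negative control gave signal on 0 assays.

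In the embryo and in embryoid bodies, cardiac muscle arises from mesoderm that passes through a state marked by Mesp1 and the receptor Flk-1 (Kdr). Cardiac progenitors then switch on transcription factors such as Nkx2.5, Tbx5, Gata4, Mef2C and Isl1. Differentiating myocytes build the sarcomere, the contractile unit made of myosin, actin and the troponin complex, and start to beat. The given markers for this comparison were Myh6-1 and Tnni3-2, assays of alpha myosin heavy chain and cardiac troponin I, Nkx2.5-1, an assay of the cardiac homeobox factor, and Flk-1.

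The sequences of 3 of these marker genes upstream of their RefSeq starts (GRCm38.p6) are shown because Myh6 and Tnni3 were detected in the same D7 cells while Flk-1 differed the other way. Each is the 250 bases before the start, 5′ to 3′ on the gene's strand. Capitals mark matches on either strand to any of 4 motifs. The core of NK2 homeobox sites was searched as AAGTG. The core of sites for GATA factors was searched as GATAA. The MCAT element, a site of TEAD factors, was searched as CATTCC. The E-box of basic helix-loop-helix factors was searched as CANNTG. No capitals are shared by 2 motifs in these stretches. The primers and probes of the assays were not used here.
Myh6, chr14:54966608-54966857, minus strand: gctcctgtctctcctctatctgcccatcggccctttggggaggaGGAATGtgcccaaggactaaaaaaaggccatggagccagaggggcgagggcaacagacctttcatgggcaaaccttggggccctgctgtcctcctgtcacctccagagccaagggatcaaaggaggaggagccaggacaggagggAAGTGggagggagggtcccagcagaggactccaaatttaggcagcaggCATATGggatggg
Tnni3, chr7:4522529-4522778, minus strand: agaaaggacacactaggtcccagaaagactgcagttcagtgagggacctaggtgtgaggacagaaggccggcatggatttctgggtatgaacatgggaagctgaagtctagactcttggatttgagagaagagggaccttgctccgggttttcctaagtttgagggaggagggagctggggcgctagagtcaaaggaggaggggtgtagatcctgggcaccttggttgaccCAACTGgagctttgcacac
Kdr (Flk-1), chr5:75978456-75978705, minus strand: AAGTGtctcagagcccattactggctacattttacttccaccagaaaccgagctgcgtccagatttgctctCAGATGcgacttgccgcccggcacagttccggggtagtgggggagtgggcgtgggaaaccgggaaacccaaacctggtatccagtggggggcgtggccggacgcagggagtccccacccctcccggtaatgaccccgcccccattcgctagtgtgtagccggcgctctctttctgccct
The Myh6 stretch holds 1 match each to the NK2 core, the MCAT element and the E-box, the Tnni3 stretch 1 E-box, and the Kdr stretch 1 NK2 core and 1 E-box. Over the 32851 promoters of that table, 40.7% hold the NK2 core, 22.6% the GATA core, 12.6% the MCAT element and 66.2% the E-box in the same window. These matches are a description of the letters.

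The 12 cells detected more assays on D7 than on D6. D6 cells detected 21.5 ± 4.76 assays (SD, n = 6; 16 to 29) and D7 cells 25.8 ± 5.04 (17 to 32). Of the 42 assays, 15 (35.7%) averaged at least 1 cycle more on D7 and 10 (23.8%) at least 1 cycle less, and 17 lay within 1 cycle. Detection followed the same pattern, with 13 assays (31%) detected in at least 2 more cells on D7 and 5 (11.9%) in at least 2 fewer. No assay separated the days completely: all D7 cells lay above all D6 cells in 0% and below them in 0% of the 42 assays. Sln, Tbx1, Cdh5 and Vwf were detected in none of the 12 cells, and Actb, Hand2 and Vim in all of them.

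Some of these counts move with the setting. Centring each cell on Actb, whose mean was itself lower by 3.38 on D7, gave 23 assays higher and 3 lower and shifted the median assay by 2.37 cycles. Centring on each cell's median detected assay gave 15 and 11. Means over detecting cells only, possible for 27 assays, left 6 higher. The count of 5 assays in fewer cells became 1 without cell D6-5, 2 without D6-3, D6-4 or D7-2, and 3 without D6-2, with shares of the 5 remaining cells scaled to 6. A limit of Ct 23 brought Hcn4 (0.43), Myh7-1 (0.57), Gata4-2 (-0.77) and Mesp1 (-0.74) within 1 cycle.

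**Figure D1:**
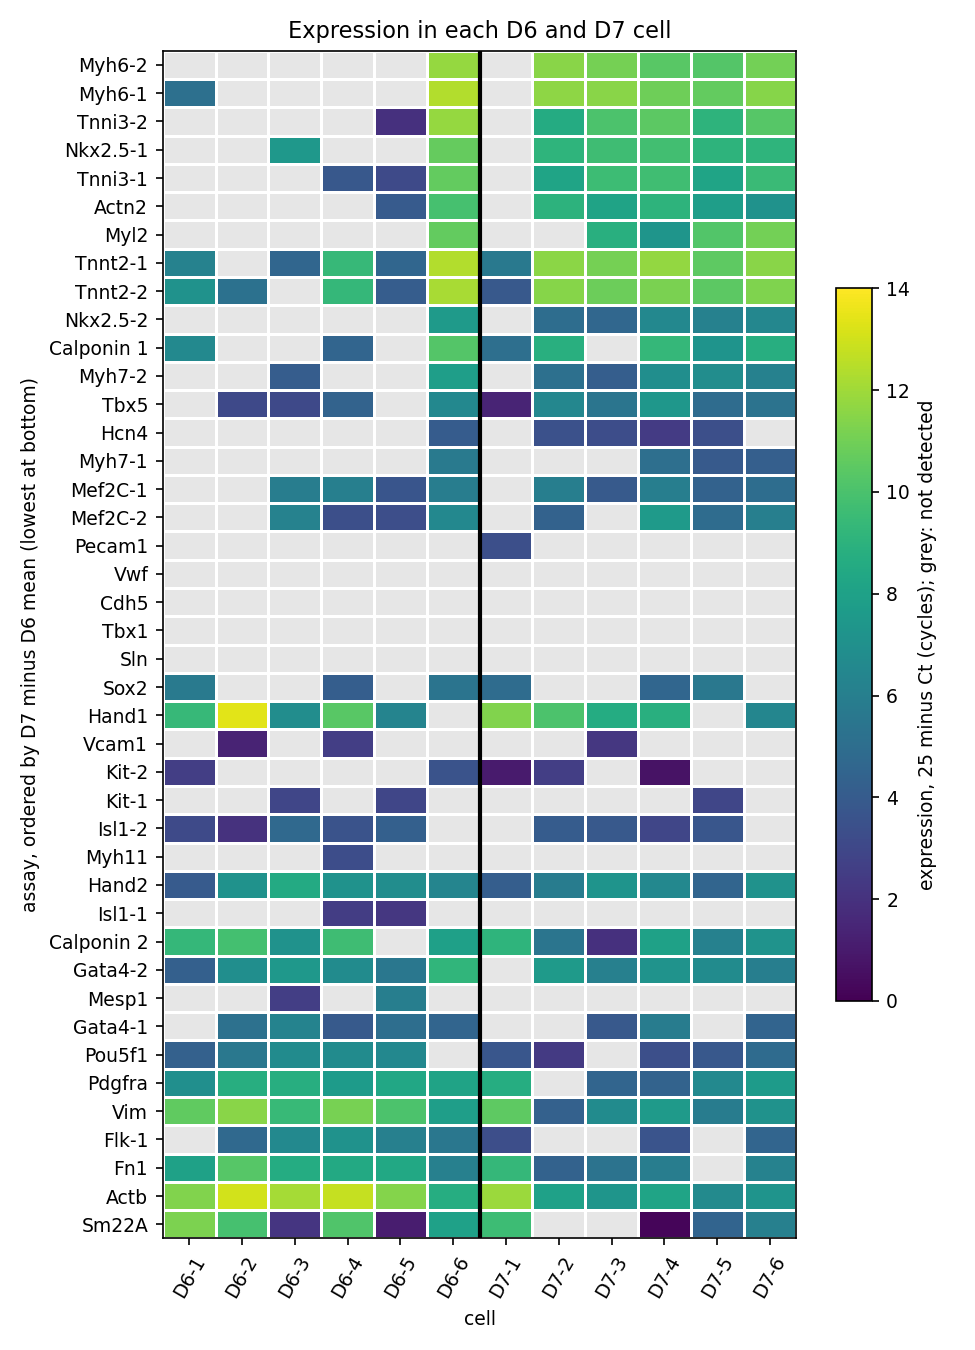
Expression of the 42 assays (rows, ordered by the difference of day means) in each of the 6 D6 and 6 D7 cells (columns), as 25 minus Ct in cycles, with grey for not detected. The sarcomere and Nkx2.5 rows other than Tnnt2 are mostly filled in D6-6 and in D7-2 to D7-6, and mostly empty in D6-1 to D6-5 and in D7-1. The Tnnt2 rows are filled in most cells of both days.

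The sarcomere genes showed the clearest difference. All 10 assays of the cardiomyocyte list (6 genes) averaged at least 1 cycle more on D7, with a median difference of 4.49 cycles, beside a median of 0 over all 42 assays. The median of the list was 7.41 after centring on Actb and 7.61 with medians over cells, and 10 of 10 stayed higher in both. It was smaller, 3.67, with a limit of Ct 23 (9 of 10 higher), and 2.47 in detecting cells only (6 of the 7 with a value higher). With 1 cell left out it ran from 4.05 (without D6-2 or D6-3) to 6.09 (without D6-6). The list gave 24 detections of 60 possible on D6 and 49 on D7, beside 129 and 155 of 252 over all assays. The list was compiled with earlier results of these data known, so its direction is not independent evidence.

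Alpha myosin heavy chain, the main motor of the rodent atrium and adult ventricle, differed most. Myh6-1 read 5.11, 0, 0, 0, 0 and 12.40 cycles in D6-1 to D6-6, and 0, 11.65, 11.53, 10.90, 10.62 and 11.46 in D7-1 to D7-6. It was thus low or undetected in 5 D6 cells, high in 1, and high in all D7 cells but D7-1. The means were 2.92 ± 5.07 and 9.36 ± 4.60 (SD, n = 6 each), a difference of 6.44 cycles. The second assay, Myh6-2, was detected on D6 in D6-6 alone, at 11.79. On D7 it read 0, 11.54, 11.06, 10.37, 10.25 and 11.02 in D7-1 to D7-6, and its means differed by 7.07.

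Cardiac troponin I, the inhibitory subunit of the troponin complex, was split in the same way. Tnni3-2 read 0, 0, 0, 0, 1.93 and 11.80 cycles in D6-1 to D6-6, and 0, 8.57, 10.05, 10.49, 9.07 and 10.32 in D7-1 to D7-6. A trace in D6-5 was therefore the only signal among the 5 D6 cells other than D6-6. The means were 2.29 ± 4.72 and 8.08 ± 4.03, a difference of 5.79. Tnni3-1 read 0, 0, 0, 3.81, 3.16 and 10.61 in D6-1 to D6-6, and 0, 8.20, 9.61, 9.70, 8.17 and 9.52 in D7-1 to D7-6. It was thus also detected in D6-4, and its means differed by 4.60.

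Alpha-actinin, the Z-disc crosslinker encoded by Actn2, was at 3.97 cycles in D6-5 and 9.86 in D6-6 and undetected in the other D6 cells. On D7 it read 0, 8.98, 8.10, 9.03, 7.80 and 7.15 in D7-1 to D7-6, and the means differed by 4.54. Myl2, the ventricular regulatory light chain, read 10.63 cycles in D6-6 and 0 in the other 5 D6 cells. On D7 it read 0 in D7-1 and D7-2, and 8.81, 7.30, 10.19 and 11.002 in D7-3 to D7-6. D7-2 was the only cell with Myh6, Tnni3 and Actn2 at high level and no Myl2. The Myl2 means were 1.77 ± 4.34 and 6.22 ± 4.98, a difference of 4.45.

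Beta myosin heavy chain, encoded by Myh7 and typical of the embryonic ventricle, was detected in many of the same cells. Myh7-2 read 4.07 cycles in D6-3 and 7.81 in D6-6, and 5.12, 4.14, 6.85, 6.79 and 6.08 in D7-2 to D7-6. Its means were 1.98 ± 3.29 and 4.83 ± 2.58, a difference of 2.85 that is -0.14 between detecting cells. Myh7-1 was detected in D6-6 and in D7-4, D7-5 and D7-6, with means that differed by 1.24. The difference of Myh7-1 was 0.67, 0.89 or 0.83 without D7-4, D7-5 or D7-6, and 2.19 without D6-6.

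Cardiac troponin T, the tropomyosin-binding subunit, was the one sarcomere gene already common on D6. Tnnt2-1 read 6.20, 0, 4.57, 9.39, 4.59 and 12.40 cycles in D6-1 to D6-6, and 5.65, 11.54, 11.08, 11.72, 10.51 and 11.49 in D7-1 to D7-6. Its 5 detecting D6 cells included 4 in which Myh6-2 was undetected, and D7-1 had it at a level like theirs. The means were 6.19 ± 4.296 and 10.33 ± 2.33, a difference of 4.14. Tnnt2-2 differed by 3.52, and by 2.26 without D6-3. Its D6 values were 7.12, 5.25, 0, 9.31, 4.09 and 12.16, and its D7 values 3.83, 11.43, 10.84, 11.20, 10.45 and 11.31. Every cell of both days detected at least 1 of the pair of Tnnt2 assays.

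**Figure D2:**
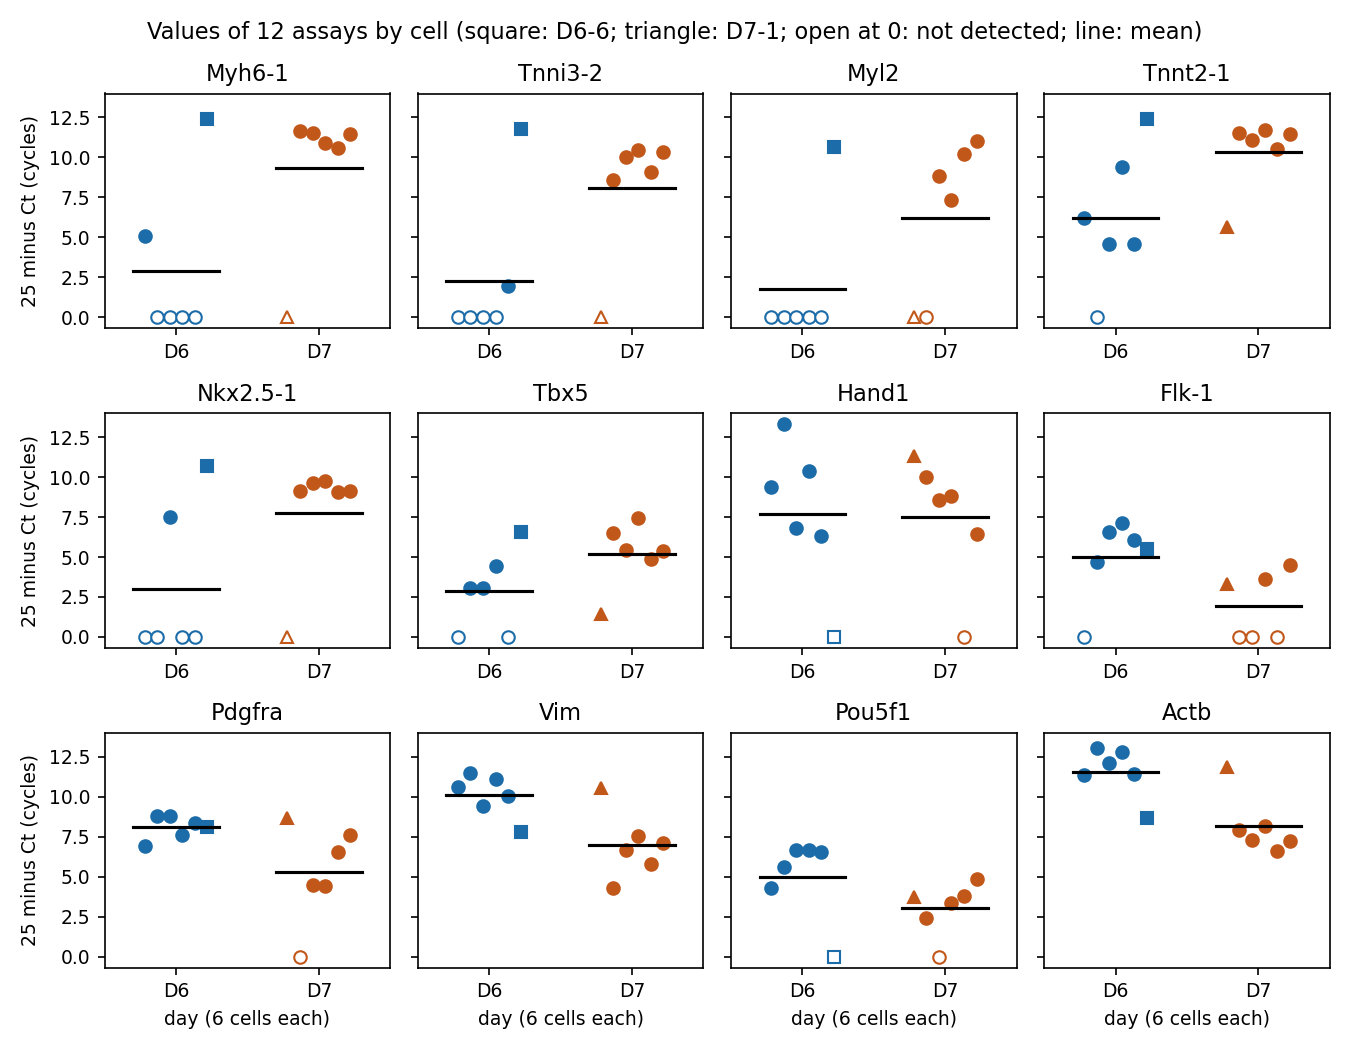
Expression (25 minus Ct, cycles) of 12 assays in the 6 cells of each day, with the mean as a line and undetected cells as open symbols at 0. The square D6-6 sits with or above most D7 cells for Myh6-1, Tnni3-2, Myl2, Tnnt2-1 and Nkx2.5-1, and the triangle D7-1 sits among the D6 cells.

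Among the 11 assays of cardiac transcription factors, 3 averaged at least 1 cycle more on D7 (both Nkx2.5 assays and Tbx5), 2 at least 1 cycle less (both Gata4 assays) and 6 lay within 1 cycle. The list median was -0.17, beside 0 over all assays. After centring on Actb 9 were higher and 0 lower. With cells centred on their median detected assay, 3 were higher and 3 lower. Without D6-3, D6-6 or D7-1 the count higher was 5, as both Mef2C assays then passed 1 cycle. The count lower was 1 without D6-3 or D7-1, and 3 without D6-1, D6-6 or D7-3. In detecting cells only, 0 were higher and 0 lower.

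Nkx2.5, the homeobox factor of the early heart field, paralleled the sarcomere genes. Nkx2.5-1 read 0, 0, 7.48, 0, 0 and 10.69 cycles in D6-1 to D6-6, and 0, 9.11, 9.66, 9.74, 9.05 and 9.12 in D7-1 to D7-6. The 5 detecting D7 cells lay close together, between 9.05 and 9.74, and D6-6 was above all of them. The means were 3.03 ± 4.80 and 7.78 ± 3.82, a difference of 4.75. Nkx2.5-2 was detected in D6-6 at 7.59 and in no other D6 cell. On D7 it read 0, 4.93, 4.62, 6.55, 6.09 and 6.49 in D7-1 to D7-6, with a difference of 3.52. In D6-3 the first assay gave signal and the second did not.

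Tbx5, the T-box factor of the first heart field, was detected in 4 D6 cells and in all 6 D7 cells. It read 0, 3.08, 3.07, 4.43, 0 and 6.55 cycles in D6-1 to D6-6, and 1.42, 6.5005, 5.45, 7.42, 4.91 and 5.36 in D7-1 to D7-6. The means were 2.85 ± 2.55 and 5.18 ± 2.05, and the days overlapped. Mef2C, a MADS-box activator of muscle genes, was already in 4 D6 cells by both assays, and its differences were 0.61 (Mef2C-1) and 0.57 (Mef2C-2). Hand2, a basic helix-loop-helix factor, was in all cells at 3.99 to 8.499 on D6 and 4.11 to 7.23 on D7.

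Gata4, the zinc finger factor of heart mesoderm, had like levels in detecting cells of both days. Gata4-2 averaged 6.66 over 6 detecting D6 cells and 6.68 over 5 detecting D7 cells, and it was undetected in D7-1. Its difference of -1.10 became 0.014 without D7-1, -0.60 without D6-6 and -0.94 without D6-3, and turned to 2.31 after centring on Actb. Gata4-1 was detected in 5 and 3 cells, and its difference of -1.79 was 0.20 after centring on Actb.

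Isl1, a LIM factor of the second heart field, was detected at up to 4.74 cycles. Isl1-2 read 3.12, 1.99, 4.74, 3.58, 4.26 and 0 cycles in D6-1 to D6-6, and 0, 4.04, 3.87, 2.92, 3.75 and 0 in D7-1 to D7-6. On D6 it was present in every cell but D6-6, and on D7 it was present in 4 of the 5 cells with Myh6. The level in detecting cells was 3.54 and 3.65, and the difference of -0.52 turned to 2.65 after centring on Actb. Isl1-1 was detected in D6-4 and D6-5, at 2.51 and 2.19, and in no D7 cell.

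Hand1, a basic helix-loop-helix factor of early cardiac and extraembryonic mesoderm, did not separate the days as measured. It read 9.37, 13.34, 6.83, 10.38, 6.31 and 0 cycles in D6-1 to D6-6, and 11.33, 10.02, 8.59, 8.84, 0 and 6.43 in D7-1 to D7-6. The difference was -0.17 as measured, 2.87 after centring on Actb and -0.33 with the median detected assay as reference. The difference was -1.71 without D6-6, the D6 cell that lacked it, and 1.34 without D7-5, the D7 cell that lacked it. On D6 the cell with the sarcomere genes was the one without Hand1, while on D7 4 of the 5 such cells carried it.

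The early mesoderm and progenitor list holds 8 assays, of which 0 averaged at least 1 cycle more on D7 and 3 at least 1 cycle less (Flk-1, Mesp1 and Pdgfra), with a list median of -0.65. After centring on Actb 2 of the 8 were higher and 2 lower, and without D6-6 the count lower was 5, with Isl1-2 at -1.11 and Hand1 at -1.71. Flk-1, the vascular endothelial growth factor receptor of mesodermal progenitors, read 0, 4.70, 6.56, 7.13, 6.07 and 5.52 cycles in D6-1 to D6-6. It read 3.33, 0, 0, 3.65, 0 and 4.50 in D7-1 to D7-6. All detected D7 values lay below all detected D6 values. The means were 4.999 ± 2.59 and 1.91 ± 2.13, a difference of -3.09 that was -1.86 after centring on Actb.

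Mesp1, the basic helix-loop-helix factor that marks nascent cardiac mesoderm, was detected in D6-3 at 2.54 and in D6-5 at 5.91. It was detected in 0 of 6 D7 cells, where an exact interval reaches 45.9%. The difference of -1.41 rests largely on D6-5 and was -0.51 without it. Pdgfra, a growth factor receptor of mesoderm and mesenchyme, read 6.92, 8.78, 8.80, 7.63, 8.33 and 8.10 in D6-1 to D6-6, and 8.67, 0, 4.49, 4.42, 6.57 and 7.61 in D7-1 to D7-6. Its difference was -2.80, -1.74 without D7-2 and -0.06 after centring on Actb. Kit, the stem cell factor receptor, gave 2 detections each for Kit-1 and Kit-2 on D6, and 1 and 3 on D7. In no cell did both Kit assays give signal.

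The mesenchymal genes and cytoskeletal actin were lower in most D7 cells as measured. Vim, an intermediate filament protein of migratory cells, read 10.59, 11.52, 9.46, 11.13, 10.06 and 7.80 cycles in D6-1 to D6-6, and 10.55, 4.32, 6.69, 7.58, 5.80 and 7.14 in D7-1 to D7-6. In 5 of 6 D7 cells it lay below every D6 cell, D7-1 being the exception. The means were 10.09 ± 1.34 and 7.01 ± 2.08, a difference of -3.08. Fn1, the matrix protein fibronectin, averaged 8.30 ± 1.36 and 5.18 ± 3.04, with D7-5 at 0 and D7-1 at 9.32. All 3 assays of the mesenchyme and fibroblast list were at least 1 cycle lower on D7.

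Actb, cytoskeletal beta-actin and the only housekeeping assay, was lower beside them. It read 11.36, 13.07, 12.12, 12.79, 11.41 and 8.66 cycles in D6-1 to D6-6, and 11.89, 7.93, 7.30, 8.15, 6.63 and 7.24 in D7-1 to D7-6. Again 5 of 6 D7 cells lay below every D6 cell and D7-1 did not, and D6-6 was the lowest of its day. The means were 11.57 ± 1.58 and 8.19 ± 1.89. Relative to Actb, none of the 3 mesenchymal assays was lower by 1 cycle (Vim 0.30, Fn1 -0.59, Pdgfra -0.06). On the median detected assay all 3 stayed lower (-2.97, -3.13 and -2.79). The median of detected assays was 6.59 ± 1.01 on D6 and 6.49 ± 0.79 on D7 (SD, n = 6 each). It is taken over the assays each cell detected, which differ between cells, so it is not a fixed reference. D7-2 to D7-6 detected 8 to 10 assays of the cardiomyocyte list, against 1 to 5 in D6-1 to D6-5, 10 in D6-6 and 2 in D7-1. Whether Actb or total RNA per cell differed was not tested.

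The smooth muscle assays went different ways. Sm22A, an actin-binding protein of smooth muscle and early myocytes, read 11.23, 9.88, 2.17, 10.14, 1.13 and 7.94 cycles in D6-1 to D6-6, and 9.59, 0, 0, 0.20, 4.43 and 6.04 in D7-1 to D7-6. The values spread widely within each day. Its difference was -3.70, -1.69 after centring on Actb and -6.59 with medians over cells. Calponin 1, an actin-binding protein of smooth muscle, was detected in 3 D6 cells (4.49 to 10.23) and 5 D7 cells (5.04 to 9.35), and its mean was 2.997 cycles higher on D7. Its highest D6 value was again in D6-6. Calponin 2 differed by just under 1 cycle (-0.995, and 2.43 after centring on Actb). This value rests on single cells, being -2.46 without D6-5 and -0.13 without D7-3. It also passed 1 cycle at a limit of Ct 23 (-1.32), with medians over cells (-1.98) and in detecting cells only (-2.46). Myh11, the smooth muscle myosin, was detected in D6-4 alone, at 3.25.

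Of the 4 assays of the endothelial list, Flk-1, which mesodermal progenitors share, was detected in 5 D6 and 3 D7 cells as given above. The other members were nearly absent: Cdh5 and Vwf were at 0 in all 12 cells, and Pecam1 was detected in D7-1 alone, at 3.34. Hcn4, the pacemaker channel, read 4.04 cycles in D6-6 and 0 in the other D6 cells, and 3.49, 3.28, 2.45 and 3.37 in D7-2 to D7-5. It was thus seen only in cells that also carried Myh6-2, and its means differed by 1.43. Vcam1, an adhesion molecule, was detected in 2 D6 cells and 1 D7 cell at 1.36 to 2.54.

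Of the pluripotency factors, Pou5f1 was lower as measured and Sox2 lay within 1 cycle. Pou5f1 read 4.31, 5.58, 6.69, 6.70, 6.52 and 0 cycles in D6-1 to D6-6, and 3.72, 2.40, 0, 3.38, 3.81 and 4.83 in D7-1 to D7-6. It was detected in 5 cells on each day, so the difference of -1.94 was one of level. This difference turned to 1.20 after centring on Actb. It was -2.04 with the median detected assay as reference and -2.94 without D6-6. Sox2 was detected in 3 cells per day, at 5.08 and 5.02 cycles in detecting cells.

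Change in the share of detecting cells was separated from change of level in them. The difference of means is the sum of a detection part (change of share times the mean of both levels) and a level part (change of level times the mean of both shares). Of the 15 assays higher on D7, the detection part was the larger in 13 and the level part in 2, the Tnnt2 assays. Myh6-2 had a detection part of 7.55 and a level part of -0.47, and Nkx2.5-1 4.60 and 0.15. For Tnnt2-1 they were 1.48 and 2.66. In 6 of the 15 (Nkx2.5-2, Hcn4, Myl2, Myh6-2 and both Myh7 assays) the parts had opposite signs, with detecting cells lower on D7 than on D6. In all of these but Myh7-2 the D6 level is that of the single cell D6-6, and Myh7-2 had 1 further cell, D6-3. The D6 levels of Myh6-1, Tnni3-2, Actn2 and Nkx2.5-1 also rest on 2 unlike cells, 1 of them D6-6 (SD 5.16, 6.98, 4.16 and 2.27). Their level parts carry the same limit.

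For the 10 assays lower on D7 neither part prevailed. The level part was the larger for Actb, Vim, Fn1, Pdgfra and Pou5f1, and the detection part for Sm22A, Flk-1, Gata4-1 and Gata4-2. Mesp1 had no detecting D7 cell and so no D7 level, and its difference counts as detection by construction. Flk-1 had both, -1.64 from detection and -1.45 from level. Actb and Vim, detected in every cell, differed by level alone.

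**Figure D3:**
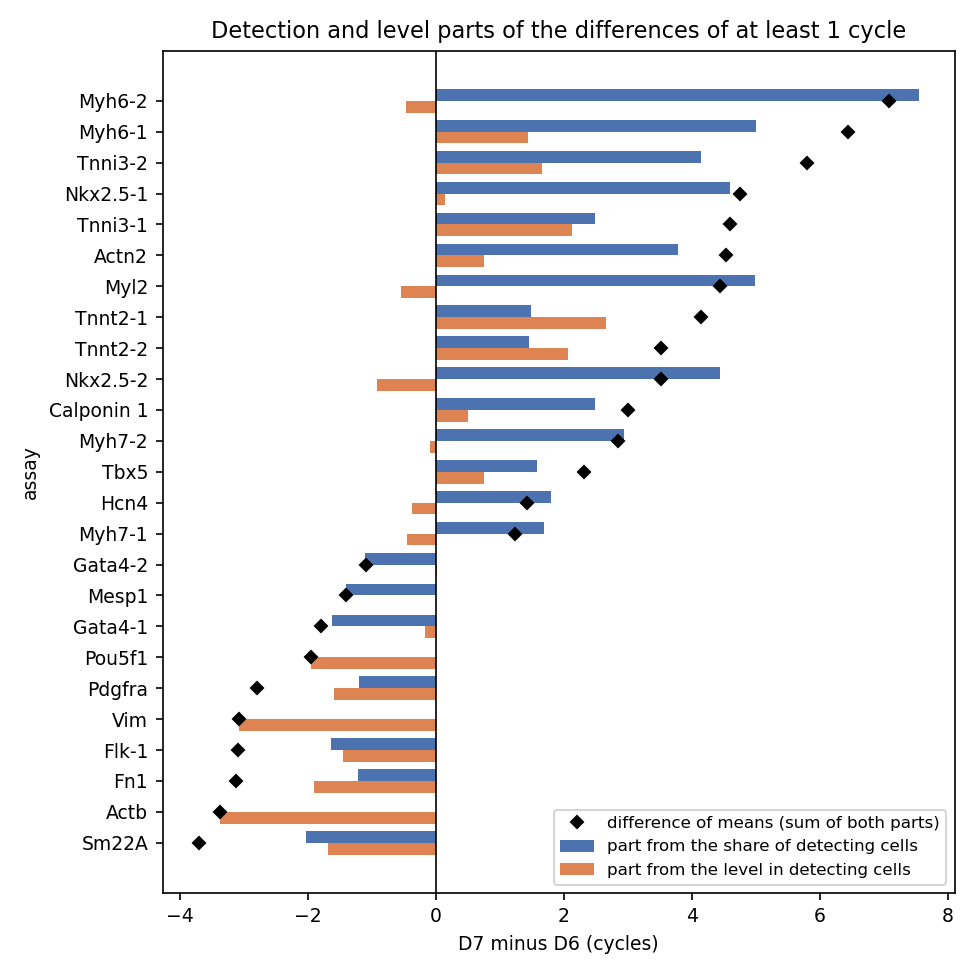
Detection part (blue), level part (orange) and their sum (diamond) in cycles for the 25 assays that differed by at least 1 cycle between D7 and D6. For the sarcomere and Nkx2.5 assays other than Tnnt2 the blue bar is the longer, such as 7.55 for Myh6-2. For Tnni3-1 both bars are close, at 2.48 (blue) and 2.12 (orange). Those of Vim and Actb are orange only, at -3.08 and -3.38.

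The 12 cells did not fall along the day alone. D6-6 detected 29 assays, all 10 of the cardiomyocyte list among them, and exceeded every D7 cell in 9 of these 10 and in 16 of the 42 assays. Its mean over the 10 assays was 10.52 cycles, against 0.52 to 2.25 in the other 5 D6 cells and 7.70 to 9.35 in D7-2 to D7-6. D7-1 detected 17 assays, 2 of the 10 on that list (both of Tnnt2), with a mean of 0.95. In 40 of 42 assays its value lay within the range of the D6 cells. The exceptions were Pecam1, above all of them, and Gata4-2, below all. That range includes D6-6 and is wide for many assays. D7-2 to D7-6 also lay within it for most assays, so the count alone does not set D7-1 apart.

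Profile correlations describe the same crossing. Over the 42 assays, which share each cell's amplification, the Pearson correlation of D6-6 with the other D6 cells was 0.08 to 0.28, and with the D7 cells 0.16 to 0.90. For D7-1 it was 0.05 to 0.27 with the other D7 cells and 0.16 to 0.91 with the D6 cells. Against the mean profiles of the 6 reference types (5 cells each, 41 assays without Actb), D6-6 and D7-2 to D7-6 correlated best with the type named CM, at 0.72 to 0.86. D6-1 to D6-5 and D7-1 correlated best with the type named CPC, at 0.58 to 0.91, and with CM at -0.03 to 0.10. In D6-3 and D6-5 the lead of CPC over the type named FB was small, 0.04 and 0.08.

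Leaving out either cell kept all 10 cardiomyocyte assays at least 1 cycle higher on D7. The list median was 6.09 without D6-6 and 5.80 without D7-1. The difference of Actb was -3.96 and -4.12, and that of Vim -3.54 and -3.79. No label gives a culture, plate position or sort gate for D6-6 or D7-1, and their origin was not tested.

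**Figure D4:**
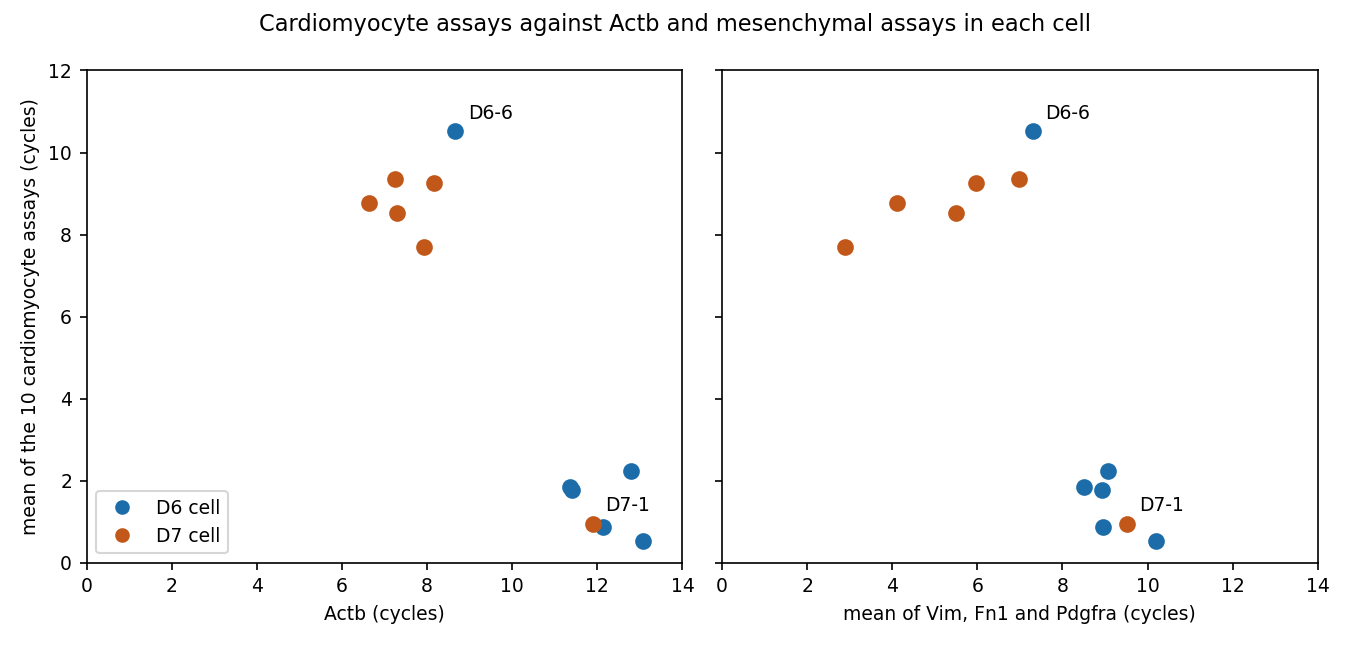
Mean of the 10 cardiomyocyte assays (cycles) against Actb (left) and against the mean of Vim, Fn1 and Pdgfra (right, cycles) in each of the 12 cells. D6-6 lies at 10.52 near the D7 cells at 7.70 to 9.35, and D7-1 lies at 0.95 among the D6 cells, with no cell between 2.25 and 7.70.

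Combinations within single cells differed between the days. On D6, Tnnt2-1 was detected with Nkx2.5-1 in 2 cells (D6-3 and D6-6) and without it in 3, and on D7 with it in 5 and without it in 1. Nkx2.5-1 occurred without Myh6-2 in D6-3 only, and Myh6-2 without Nkx2.5-1 in no cell. D6-3 also carried Mesp1, Flk-1, Isl1-2, both Mef2C assays and Myh7-2. Isl1-2, Hand1 and Pou5f1 were each detected with Myh6-2 in 0 cells on D6 and in 4 cells on D7. Flk-1 was detected with Myh6-2 in 1 D6 cell (D6-6) and in 2 D7 cells (D7-4 and D7-6). These counts rest on 6 cells per day, and only 1 D6 cell had Myh6-2.

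For 9 genes 2 assays allow a check of detection within a cell. Over the 108 pairs of gene and cell, both assays gave signal in 51, neither in 30 and only 1 in 27. Of these 27, 7 were of Isl1 and 8 of Kit. Signal from 1 assay only had a median of 3.87 cycles (0.69 to 7.56), and where both gave signal the lower one had a median of 5.94. In the cells with both, Myh6-2 averaged 0.42 ± 0.17 cycles less than Myh6-1 (SD, n = 6), Tnni3-2 0.46 ± 0.80 more than Tnni3-1 (n = 7) and Nkx2.5-2 3.51 ± 0.91 less than Nkx2.5-1 (n = 6). The 2 Myh6 assays disagreed on detection in 1 cell, D6-1, and the 2 Tnni3 assays in 1, D6-4. A low single signal such as Myh6-1 in D6-1 therefore has no second assay behind it.

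The neighbouring steps are given for scale. They share cells with this one, and the differences between steps were not tested. Over all 42 assays the net gain of detections was 41 from D5 to D6, 26 from D6 to D7 and -1 from D7 to D8, and 19, 15 and 12 assays were at least 1 cycle higher. The median of the cardiomyocyte list was 1.79 from D5 to D6, 4.49 from D6 to D7 and 1.52 from D7 to D8, and its net gain of detections was 13, 25 and 7 of 60. On D7 the list already stood at 49 of 60, which left little room for a gain to D8. For the 11 transcription factor assays the net gain was 27, 4 and 1 of 66, and 9, 3 and 4 of them were at least 1 cycle higher. Tbx5 and both Mef2C assays were at 0 in all D5 cells and detected in 4 cells each on D6. Nkx2.5-1 was detected in 0, 2, 5 and 6 cells over the 4 days, and Flk-1 in 5, 5, 3 and 0.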

How the data were processed

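Sorted single cells were lysed and reverse transcribed, their cDNA was pre-amplified, and TaqMan assays were read on Fluidigm chips, per the labels' protocols. The authors deposited Ct values. How Ct was thresholded or filtered, and whether a reference gene was used, is not given here. Because Ct ends at 25, a weak and an absent transcript read alike.

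The D6 and D7 cells were taken by the names in the table's second line. Expression is 25 minus Ct (0 when undetected). Means, SD, detection shares with exact intervals, the split into detection and level, and Pearson correlations were computed in Python 3.11.15 with pandas 2.3.3 and scipy 1.17.1, and the split was tested on simulated data. A threshold of 1 cycle, or 2 of 6 cells, defined a difference. No p-value was computed. Of 33 genes, 30 matched a RefSeq symbol and 3 a synonym, of which Sm22A fits Tagln and Tagln2. The calponin assays were taken as Cnn1 and Cnn2, and Myh11 as the reference table's Myh11-1. The members, lists and markers were chosen with earlier results of these data known.

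Every cell is given for the 4 markers, the 10 largest differences, assays whose detecting cells differ by 3 or more, and Mesp1, Isl1, Hand1, Pou5f1 and Actb. Tbx5, Vim and Pdgfra were added after their values were seen. Alternatives were centring on Actb, or on each cell's median detected assay (with undetected values at the lowest centred value), a limit of Ct 23, medians, detecting cells only (at least 2 per day), leaving out each cell, and a filter on cells.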

Additional observations from a re-analysis of the deposited data

Results flagged for a closer look

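In 18 of 40 sets of 6 cells (20 named assays and the number of detected assays on each day, without sets in which all cells were equal), the highest or lowest cell stood apart: its gap to the nearest cell, over the range, passed Dixon's 95% critical value. For normally distributed values chance passes it in about 1 in 20 sets. That rate does not apply here, because undetected cells pile up at 0: an assay detected in 1 cell of 6 always passes, and one lost in 1 of 6 high cells nearly always does. The sets are also not independent, since 7 of the 18 name D6-6 and 10 name D7-1.

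D6-6 was the highest D6 cell for Nkx2.5-2 (7.59 cycles), Hcn4 (4.04), Myl2 (10.63), Myh6-2 (11.79), Tnni3-1 (10.61) and Tnni3-2 (11.80). It was the lowest for Pou5f1 (0). In the first 4 of these the other 5 D6 cells were all at 0.

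D7-1 was the highest D7 cell for Actb (11.89 cycles). It was the lowest for Nkx2.5-1, Nkx2.5-2, Actn2, Myh6-1, Myh6-2, Tnni3-1 and Tnni3-2 (0 each), Tnnt2-1 (5.65) and Tnnt2-2 (3.83). The nearest other D7 cell was at 10.62 for Myh6-1 and 9.05 for Nkx2.5-1. D6-1 was the lowest D6 cell for Flk-1 (0), the nearest being at 4.70.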

How the results depend on the processing

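All 10 cardiomyocyte assays stayed at least 1 cycle higher on D7 on either centring, with medians over cells and without any D6 cell or D7-1, D7-2 or D7-3. The number was 9 with a limit of Ct 23 and without D7-4, D7-5 or D7-6, and 6 of the 7 with a value in detecting cells only. In that last setting the D6 level of Actn2, Myh6-1 and Tnni3-2 averages D6-6 and 1 weaker signal (3.97, 5.11 and 1.93). That of Tnni3-1 averages D6-6 and 2 weaker signals (3.81 and 3.16). D6-6 itself exceeded every D7 cell in these 4 assays, so their higher D7 level rests on the weaker D6 signals. The count of assays at least 1 cycle higher (15) became 23 on Actb and 6 in detecting cells only. The count lower (10) became 3 on Actb. The count in at least 2 fewer cells (5) ran from 1 to 5 with single cells left out, which a day of 5 cells sets in part. Among the 20 named assays, 2 of 114 alternative values turned a difference of at least 1 cycle to the opposite sign: Pou5f1 to 1.20 on Actb and Myh7-2 to -0.14 in detecting cells only. Differences under 1 cycle were not counted as reversed when their sign changed, as for Hand1 (-0.17; 2.87 on Actb and 0.62 with medians) and Isl1-2 (-0.52; 2.65 on Actb and 0.11 in detecting cells). Of the rest of the 114, 7 moved by more than the SD between cells and 105 did not. Actb centred on itself is among the 7, being 0 by construction. None of 240 moved that far with 1 cell left out. Dropping 1 of 6 cells cannot move a difference of means by that SD, so this count says nothing on stability. The filter on cells left out 0 of the 12, so its values among the 105 repeat the main ones. The design limits every value to 6 cells and 1 sample per day.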
